A study of Rattus norvegicus with 6 samples.

Results

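The genes examined were 8 genes of glycogen synthesis and breakdown, taken by gene name from the 32623 genes of a table of RNA sequencing of rat myocardium. They were Gyg1, Gys1, Gbe1, Ppp1r3c, Pygm, Pygb, Pygl and Phka1. Each name matched a single protein-coding gene, and all 8 had a mean FPKM of at least 0.5 (fragments per kilobase of gene, scaled to library size), the level above which 13964 genes were tested. Myocardial tissue came from wild-type (WT) male rats. In the ischemia group (n = 3) ligation of the left anterior descending artery followed a left thoracotomy, and the tissue carries the label 30 min. Occlusion was judged by ST-segment elevation on the electrocardiogram. The sham group (n = 3) carries the same time label, and how its operation differed is not given in the labels. No transgene or drug is named for either group, and the sampled part of the heart and the ages are not given in the sources used here.

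Glycogen is the branched glucose store of the cardiomyocyte. Glycogenin (Gyg1) primes the chain, glycogen synthase (Gys1 in muscle) lengthens it and the branching enzyme (Gbe1) adds side chains. Glycogen phosphorylase, which exists as muscle (Pygm), brain (Pygb) and liver (Pygl) isozymes, releases glucose 1-phosphate, and phosphorylase kinase, whose muscle alpha subunit is encoded by Phka1, switches phosphorylase on in response to calcium and adrenergic signals. Ppp1r3c (protein targeting to glycogen) brings protein phosphatase 1 to the particle, where it activates synthase and inactivates phosphorylase. In the oxygen-deprived heart, glycogen is a source of glucose for glycolysis that does not depend on blood flow.

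Phka1 fell in ischemia, by 2.10 on the log2 scale, and was the member of the 8 that passed the edgeR test across all genes. Gys1, Ppp1r3c, Pygm and Pygb had lower FPKM in every ischemia sample than in any sham sample, at mean levels of 53.7%, 46.8%, 43.3% and 31.5% of sham, but did not pass in edgeR. Of all tested genes, 15.0% were lower without overlap. DESeq2 called Gys1, Ppp1r3c and Pygb lower as well as Phka1, against 12.5% of all genes. Gyg1 and Gbe1 lay at 97.9% and 96.6% of the sham mean. Pygl followed individual samples and not the groups.

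Depth, tissue make-up and sex-linked reads were compared over the samples first. Total counts were between 68529126 and 79591989 per sample, and the 8 genes together took 0.0723% to 0.251% of them. The cardiac troponin gene Tnnt2 had an FPKM of 2564 to 6231, so cardiac muscle was present in every sample. The 5 atrial marker genes summed to 48344 and 39345 FPKM in sham replicates 1 and 3, to 216 in sham replicate 2, while the ischemia samples had 9610, 2078 and 1279. All rats are described as male, but on 3 Y-linked genes sham replicate 1 had only 26 counts, where the remaining samples had 1772 to 4318. The study describes a heat map of rat hearts at this time as resting on independent experiments, while the labels number the samples and name no animals, so p-values measure the spread between these samples.

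The 3 promoter stretches shown are those of the member that passed (Phka1), of the most abundant member (Pygm) and of the member whose window held the most matches to ACGTG, the core of the hypoxia response element (Ppp1r3c). They are RefSeq sequences of the 250 bases before the start of the gene, from build GRCr8, at chrX:71778122-71778371 on the minus strand for Phka1, chr1:213119555-213119804 on the plus strand for Pygm and chr1:243878528-243878777 on the minus strand for Ppp1r3c. Capitals mark ACGTG on either strand, where CACGTG counts once on each strand because it reads the same on both.
Phka1: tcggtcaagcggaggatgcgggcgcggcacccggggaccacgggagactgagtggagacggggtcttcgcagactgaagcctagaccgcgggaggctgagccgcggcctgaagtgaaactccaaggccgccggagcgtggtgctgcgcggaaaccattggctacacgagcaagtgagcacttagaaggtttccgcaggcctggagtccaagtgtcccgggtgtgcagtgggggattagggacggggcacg
Pygm: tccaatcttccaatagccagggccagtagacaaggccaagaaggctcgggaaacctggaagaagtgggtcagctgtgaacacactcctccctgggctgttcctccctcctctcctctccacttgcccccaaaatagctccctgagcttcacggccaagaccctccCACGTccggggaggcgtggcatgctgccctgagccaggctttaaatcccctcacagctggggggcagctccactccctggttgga
Ppp1r3c: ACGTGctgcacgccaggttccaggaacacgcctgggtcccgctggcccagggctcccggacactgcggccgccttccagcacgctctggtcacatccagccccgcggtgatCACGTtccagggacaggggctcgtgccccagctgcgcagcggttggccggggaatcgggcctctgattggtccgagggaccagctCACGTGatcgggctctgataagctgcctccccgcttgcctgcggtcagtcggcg

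The Ppp1r3c window held 4 matches to ACGTG and the Pygm window 1, while the Phka1 window had none of these letters. Over the 8 genes, all matched by symbol, ACGTG was present in 6 windows, against 16.6% of 33469 windows of the same length. It was absent from the windows of Gys1 and Phka1. CACGTG, which contains it, was in 2 of the 8 windows (Gyg1 and Ppp1r3c) against 5.59% of all. GGGCGG was in 5 of the 8 against 30.5%, CCAAT in 4 against 34%, TGACGTCA in none against 1.59% and the MEF2 motif in none against 3.41%, both strands being searched. The windows of the 8 genes had a GC content of 53.6% to 72.4%, above the median of 51.2% over all windows. Chromatin or factor binding at these windows was not analysed here, and a match is a description of letters.

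By level per gene length, Pygm led the 8 genes. In sham its FPKM was 409.7 ± 104.2 (SD, n = 3), and its lowest sham sample lay above the highest sham sample of Gyg1, the next in order at 73.8 ± 7.95. Ppp1r3c at 60.6 ± 15.6, Pygb at 51.1 ± 25.1 and Gys1 at 46.1 ± 12.3 followed, and each overlapped its neighbour. Gbe1 at 22.5 ± 2.72 was separate from Gys1 above it. Pygl at 9.09 ± 11 overlapped both Gbe1 and Phka1, and Phka1 was the lowest at 4.71 ± 1.85. In ischemia the order changed below Ppp1r3c. Pygm at 177.6 ± 118.5 overlapped Gyg1 at 72.2 ± 8.25, Ppp1r3c at 28.3 ± 13.8 lay below Gyg1 without overlap, and Gys1, Gbe1, Pygb and Pygl followed with overlapping neighbours, at 24.7 ± 7.87, 21.7 ± 6.23, 16.1 ± 9.97 and 15.6 ± 19.9. Phka1 at 1.13 ± 0.29 was again the lowest.

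**Figure D1:**
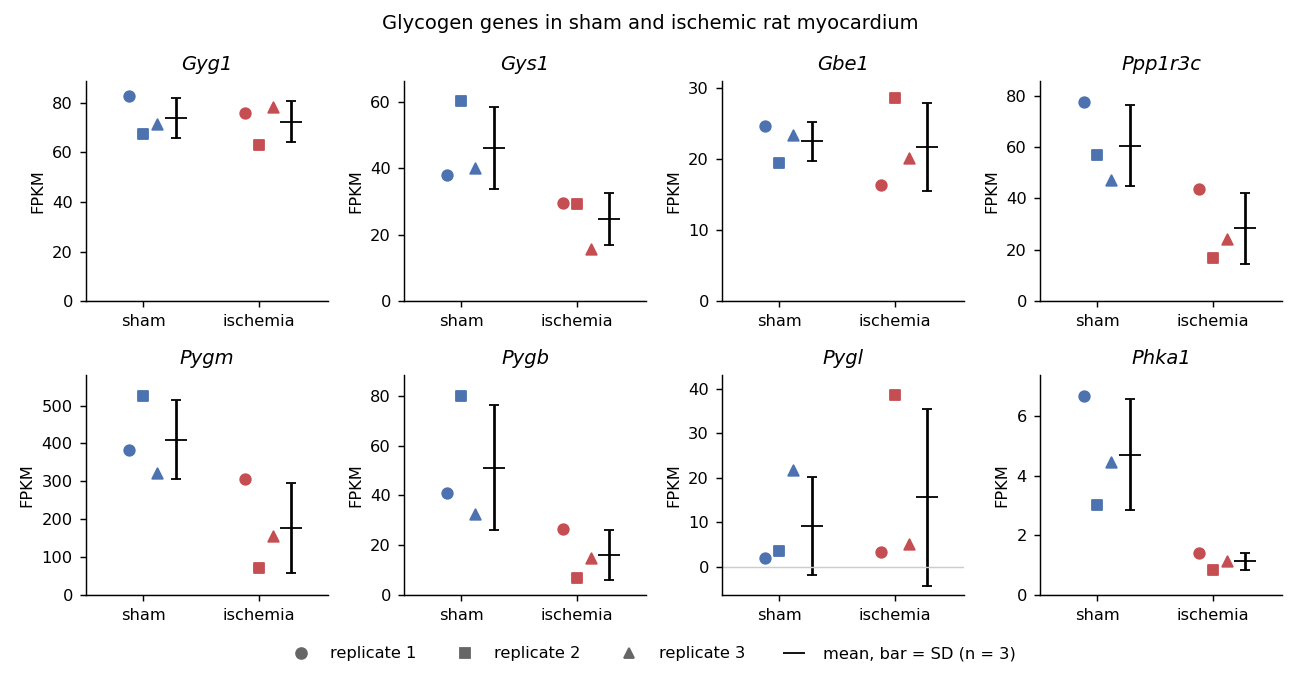
FPKM of the 8 glycogen genes in each sham and ischemia sample (linear axis, 1 panel per gene; symbols mark the replicate number, the bar the mean ± SD, n = 3). The ischemia values of Gys1, Ppp1r3c, Pygm, Pygb and Phka1 lie below every sham value, those of Gyg1 and Gbe1 overlap the sham values, and Pygl is high in sham replicate 3 (21.8) and ischemia replicate 2 (38.6).

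Which of the 8 genes changed was tested with the edgeR quasi-likelihood test on raw counts. At a Benjamini-Hochberg adjusted p under 0.05, 1 of the 8 was lower in ischemia, against 1.53% of all 13964 tested genes, and 0 were higher, against 5.18%. No member was higher at an unadjusted p under 0.05 in edgeR, against 18.2% of all genes, or at an adjusted p under 0.05 in DESeq2, against 14.8%, or in limma on log2(FPKM + 0.1), against 6.09%. At an unadjusted p under 0.05, 4 of the 8 were lower, against 14.2% of all genes. The FPKM ranges of the groups did not overlap for 5 of the 8, all lower in ischemia, against 15.0% of all genes lower without overlap. DESeq2 called 4 of the 8 lower, against 12.5% of all genes. The median log2 fold change was -1.11 over the 8 genes, 7 of them negative, and -0.0015 over all tested genes. In bulk tissue, fewer cells of a type and less RNA per cell cannot be told apart.

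The first group of genes builds the polymer. Positions of genes are those of the deposited table, whose build is not given in the sources used here, and they are not to be set beside the GRCr8 positions of the promoters. Gyg1 (ENSRNOG00000011146), at chr2:104916738-104958034 (minus strand), had FPKM of 82.7, 67.3 and 71.5 in the sham samples and of 75.8, 62.8 and 78.1 in the ischemia samples, given here and elsewhere in the order of replicates 1 to 3. The groups overlapped, and the log2 fold change was -0.11 ± 0.20 (SE), with a 95% interval of -0.59 to 0.37 (edgeR adjusted p 0.720). Gbe1 (ENSRNOG00000051232), at chr11:7210209-7485211 (plus strand), had 24.6, 19.4 and 23.4 in sham and 16.4, 28.6 and 20.1 in ischemia. Its ischemia samples lay on both sides of the sham samples, at a log2 fold change of -0.14 ± 0.21 with an interval of -0.64 to 0.35 (edgeR adjusted p 0.644). For both genes the interval held a decrease of up to about 0.6 on the log2 scale.

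Gys1 was lower in each ischemia sample than in any sham sample. Glycogen synthase (ENSRNOG00000020812), at chr1:101427195-101447092 (plus strand), had FPKM of 38.0, 60.2 and 40.0 in sham, against 29.4, 29.2 and 15.7 in ischemia. The groups did not overlap, sham replicate 2 being the highest and ischemia replicate 3 the lowest. The log2 fold change was -1.04 ± 0.36, with an interval of -1.91 to -0.17, and did not pass in edgeR but did in DESeq2 (edgeR adjusted p 0.114, DESeq2 adjusted p 0.0323). Without sham replicate 2 the log2 fold change was -0.66 (edgeR adjusted p 0.219). The liver synthase Gys2 was low in 5 samples, at 0.165 to 0.393 FPKM, and reached 3.09 in sham replicate 3. Ugp2, which makes the UDP-glucose that synthase uses, had 52.6 ± 5.16 in sham and 50.0 ± 15.6 in ischemia (log2 fold change -0.20, edgeR adjusted p 0.621).

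Ppp1r3c (ENSRNOG00000018494) lies at chr1:255371810-255376833 (minus strand). Its FPKM was 77.7, 57.0 and 47.1 in sham, against 43.7, 16.9 and 24.4 in ischemia. The groups were separated by a narrow margin, between sham replicate 3 and ischemia replicate 1. The log2 fold change was -1.17 ± 0.41, with an interval of -2.17 to -0.18 (edgeR adjusted p 0.116, DESeq2 adjusted p 0.0317). It passed in edgeR without ischemia replicate 1, at -1.64 with an adjusted p of 0.0357.

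Other glycogen-targeting subunits of the phosphatase did not share that pattern evenly. Ppp1r3a, the striated muscle subunit, fell by 1.93 ± 0.38 on the log2 scale (edgeR adjusted p 0.0423). Its FPKM was 4.8, 2.39 and 2.99 in sham and 1.36, 0.777 and 0.639 in ischemia, without overlap. Ppp1r3a kept its edgeR call without ischemia replicate 1 (adjusted p 0.0166) and lost it without sham replicates 1, 2 or 3 (0.161, 0.0861 and 0.139) and without ischemia replicates 2 or 3 (0.0745 and 0.138). Ppp1r3d, a widely expressed subunit, had 26.7 ± 2.56 in sham and 24.2 ± 6.77 in ischemia (log2 fold change -0.23, edgeR adjusted p 0.562). Ppp1r3b, the subunit best known from liver, had 2.21 to 4.34 in sham and 2.53 and 2.62 in ischemia replicates 1 and 3, against 17.7 in ischemia replicate 2 (log2 fold change 0.99, edgeR adjusted p 0.384).

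Of the FPKM summed over Ppp1r3a to Ppp1r3d, Ppp1r3c made up 67.0%, 65.1% and 59.6% in sham and 55%, 30.9% and 49.7% in ischemia. Its share was lower in each ischemia sample than in each sham sample. Ppp1r3d made up 25.4% to 31.1% in sham and 35.2% to 43.7% in ischemia. In ischemia replicate 2 Ppp1r3b alone held 32.5%, against 2.53% to 5.49% in the other samples.

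The second group of genes takes the polymer apart. Pygm (ENSRNOG00000021090), at chr1:221756286-221771143 (plus strand), ranked 293 of the 13964 tested genes by mean FPKM. Its FPKM was 382.7, 524.7 and 321.6 in sham and 305.0, 70.8 and 156.9 in ischemia. All ischemia samples lay below all sham samples, but ischemia replicate 1 was close to sham replicate 3. The log2 fold change was -1.31 ± 0.59, with an interval of -2.73 to 0.11 (edgeR adjusted p 0.178, DESeq2 adjusted p 0.0731). It was -1.95 without ischemia replicate 1 and -0.92 without ischemia replicate 2, and passed in neither (edgeR adjusted p 0.0639 and 0.261). Pygb (ENSRNOG00000007583), at chr3:146582752-146634535 (plus strand), had 41.0, 79.7 and 32.6 in sham, against 26.6, 6.81 and 14.9 in ischemia. The order of samples was that of Pygm in both groups, with sham replicate 2 highest and ischemia replicate 2 lowest. The log2 fold change of Pygb was -1.80 ± 0.65, with an interval of -3.35 to -0.25 (edgeR adjusted p 0.119, DESeq2 adjusted p 0.0208). Without sham replicate 2 it was -1.15 (edgeR adjusted p 0.267).

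Pygl (ENSRNOG00000006388), at chr6:92597706-92643847 (minus strand), had FPKM of 1.87, 3.60 and 21.8 in sham and 3.24, 38.6 and 5.09 in ischemia. A single sample was high in each group. The log2 fold change was 0.69 ± 1.18, with an interval of -2.15 to 3.52 (edgeR adjusted p 0.702), and it turned to -1.09 without ischemia replicate 2. Pygl is expressed in blood neutrophils as well as liver. Of 12 neutrophil and monocyte markers with a row, 11 were tested, and all 11 had positive log2 fold changes. At an adjusted p under 0.05 in edgeR 10 of them were higher, against 5.18% of all genes. The markers summed to 12.9 to 22.5 FPKM in sham and to 537, 3943 and 566 in ischemia replicates 1 to 3. Fpr1 was listed without reads except in ischemia replicate 2. The sum was thus highest in the ischemia sample with the highest Pygl but low in sham replicate 3. In that sham sample the 4 adipocyte markers summed to 187 FPKM against 20.3 and 36.5 in the other sham samples and 0.207 to 18.8 in ischemia, and the 4 smooth muscle markers to 839 against 50.5 to 221 elsewhere. The 5 macrophage markers summed to 29.0 to 47.8 FPKM in sham and 64.9 to 169 in ischemia, and 4 endothelial markers to 135 to 161 over all samples. The hepatocyte markers Alb, Apoa1 and Ttr summed to at most 26.0 FPKM in any sample. The part of these cell types in the Pygl values was not tested.

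The isozyme make-up was compared within samples, which removes library scaling. Pygm made up 89.9%, 86.3% and 85.5% of the summed phosphorylase FPKM in sham, and 91.1%, 60.9% and 88.7% in ischemia. The groups overlapped, and the means differed by -7.01 percentage points (two-sided exact permutation p 0.9, where 3 samples against 3 cannot give less than 0.1). Without ischemia replicate 2 the difference was 2.64. The Pygb share was 8.68% to 13.1% in sham and 5.86% to 8.41% in ischemia, and the Pygl share of 33.2% in ischemia replicate 2 stood against 0.440% to 5.79% in the other samples. The summed phosphorylase FPKM was 425.6, 608.0 and 376.0 in sham and 334.9, 116.2 and 176.9 in ischemia.

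**Figure D2:**
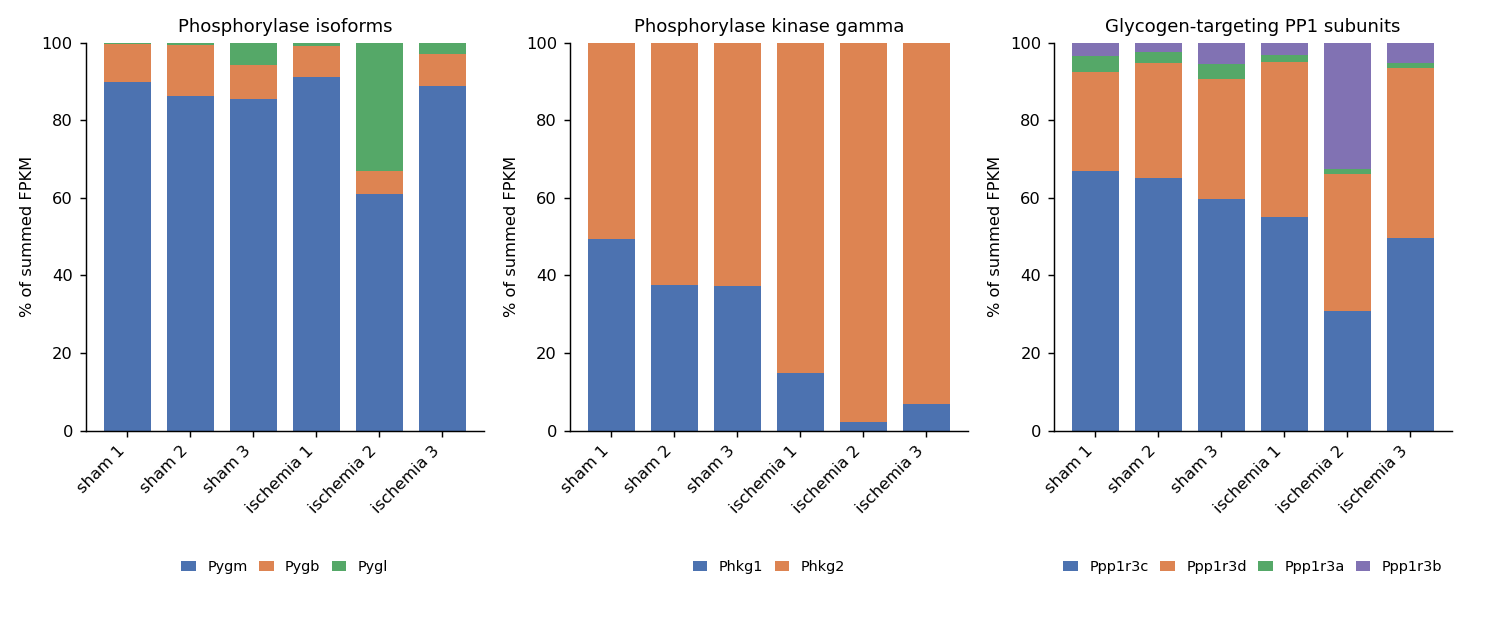
Share of the summed FPKM (%, linear axis from 0) held by each phosphorylase isozyme, by each gamma subunit of phosphorylase kinase and by each glycogen-targeting phosphatase subunit, with 1 bar per sample. Pygl (33.2%) and Ppp1r3b (32.5%) take a large share in ischemia replicate 2, and Phkg1 holds 37.3% to 49.3% in sham against 2.23% to 14.8% in ischemia.

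Synthase and phosphorylase were also set against each other. The log2 ratio of Gys1 to Pygm FPKM was -3.33, -3.12 and -3.01 in sham, against -3.38, -1.28 and -3.33 in ischemia. The means differed by 0.49 (two-sided exact permutation p 0.9), and by -0.20 without ischemia replicate 2, so the direction rested on that sample. The log2 ratio of Gyg1 to Gys1, described without a test, was 1.12, 0.16 and 0.84 in sham and 1.37, 1.11 and 2.32 in ischemia, and the groups overlapped.

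The lysosomal alpha-glucosidase Gaa breaks glycogen down by a route apart from phosphorylase. Gaa had FPKM of 44.7, 35.5 and 35.5 in sham and of 32.6, 10.2 and 19.9 in ischemia (log2 fold change -0.95, edgeR adjusted p 0.183). All ischemia samples lay below all sham samples, and the gene did not pass.

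Phka1 (ENSRNOG00000003063), at chrX:72377021-72515366 (minus strand), had FPKM of 6.67, 3.0 and 4.45 in sham, against 1.41, 0.829 and 1.15 in ischemia. These rested on 3317, 1589 and 2106 reads counted in sham, and on 759, 408 and 532 in ischemia. The lowest sham sample was above the highest ischemia sample, and the gene was 4.29-fold lower, a log2 fold change of -2.10 ± 0.34 with an interval of -2.92 to -1.29 (edgeR adjusted p 0.0337). The adjusted p-values of Phka1 over the alternatives ran from 3.88e-07 with DESeq2 to 0.195 in edgeR with scaling to ventricular genes, with the call kept in 12 of 19. The edgeR call held without ischemia replicate 1 (adjusted p 0.0222) or 2 (0.0421) and was lost without sham replicate 1 (0.158), 2 (0.0820) or 3 (0.129) or ischemia replicate 3 (0.122), with log2 fold changes of -2.31 to -1.82.

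Phosphorylase kinase is built of alpha, beta, gamma and calmodulin subunits. The beta subunit Phkb had FPKM of 5.0, 2.61 and 3.99 in sham, against 2.18, 1.77 and 1.66 in ischemia. The muscle catalytic subunit Phkg1 had 11.6, 7.37 and 7.61 in sham and 2.68, 0.317 and 1.07 in ischemia. Neither passed, with log2 fold changes of -1.11 ± 0.25 and -2.76 ± 0.76 (edgeR adjusted p 0.0510 and 0.0727), though neither overlapped between the groups. The other catalytic isoform, Phkg2, had 12.0 to 12.8 in sham and 13.9 to 15.5 in ischemia (log2 fold change 0.15 ± 0.18, edgeR adjusted p 0.582). Phkg1 thus made up 49.3%, 37.4% and 37.3% of the summed gamma subunit FPKM in sham, and 14.8%, 2.23% and 6.81% in ischemia. The other alpha subunit gene, Phka2, was not analysed here.

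**Figure D3:**
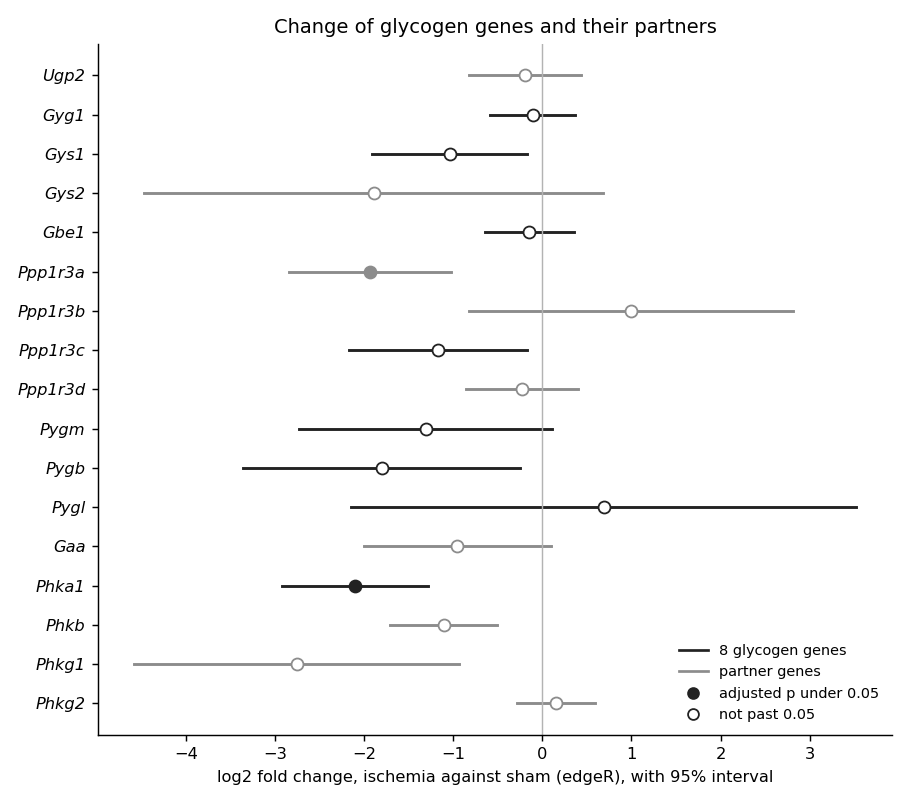
Log2 fold change of ischemia against sham with its 95% interval (edgeR) for the 8 glycogen genes (black) and 9 partner genes (grey), ordered from synthesis to breakdown. Filled points, Phka1 (-2.10) and Ppp1r3a (-1.93), passed an adjusted p of 0.05.

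A wider list of 44 genes added the other subunits, glucose 1-phosphate handling, laforin and malin (Epm2a and Nhlrc1, which act on glycogen structure), calmodulins and the kinases GSK3, PKA and AMPK. Of these, 40 had a row, Calm2 had 2 rows, and 39 rows were tested. Ppp1r3e and Ppp1r3g were below the FPKM limit. Outside the 8 members, 31 rows were tested, of which 1 (Ppp1r3a) was lower and 0 were higher at an adjusted p under 0.05 in edgeR, and the former count is near the share of 1.53% over all genes. At an unadjusted p under 0.05, 9 were lower, against 14.2% of all genes, and 2 higher, against 18.2%. Their median log2 fold change was -0.20, and 16 of 31 were negative. In FPKM, 10 of them were lower without overlap, against 15.0% of all genes, and 3 were higher, against 23.6%. Among these were Phkg2 and Ppp1ca, the latter a catalytic subunit of the phosphatase that was named after its values were seen and had FPKM of 161 to 169 in sham and 191 to 205 in ischemia (log2 fold change 0.18, edgeR adjusted p 0.501).

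The genes whose pattern over the 6 samples was most like that of a member were sought among those with a mean FPKM of at least 5, by Pearson's r on log2 counts per library size, as a description. For Phka1 these were Drosha (r = 0.999), Ptgfrn (0.998) and the unnamed locus AABR07046707 (0.995). For Pygm they were Selenon, Dele1 and Kyat1, each with r of at least 0.999. For Pygl they were Cnn3 (0.965), Dgat2 (0.964) and Rab7a (0.954), and Dgat2, an enzyme of triglyceride synthesis, had FPKM of 71.1 in sham replicate 3 and 78.1 in ischemia replicate 2 against 3.74 to 13.5 in the others. All values share the same 6 libraries.

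Muscle cell markers were set beside the members. The 8 ventricular cardiomyocyte markers summed to 26616, 42187 and 25102 FPKM in sham and 24500, 12582 and 23688 in ischemia, so the sum was highest in sham replicate 2 and lowest in ischemia replicate 2, as Pygm and Pygb were. In ischemia replicate 3 the sum was close to those of sham replicates 1 and 3, but single markers differed in both directions. Myl2, Myl3 and Myh7 were higher there than in either of these sham samples, and the other markers were lower. Myl2 had 1238 FPKM in ischemia replicate 3 against 366 and 346, and Actc1 had 4709 against 10338 and 10210. The similar sum thus did not stand for similar marker levels. Pygm was 156.9 FPKM in ischemia replicate 3 against 382.7 and 321.6. None of the 8 markers passed in edgeR, 6 of 8 had negative log2 fold changes, the median was -0.51, and none was at 0. Myh6 and Actc1 stood at -2.38 and -1.70 (edgeR adjusted p 0.0510 and 0.0536), while Tnnt2 and Tnni3 stood at -0.43 and -0.59 (0.512 and 0.412). Myh7 and Myl3 were positive, at 0.86 and 0.20 (edgeR adjusted p 0.40 and 0.905). With libraries scaled to the mean log2 CPM of these 8 genes, which raised the median of all genes by 0.56, Gys1, Ppp1r3c, Pygm, Pygb and Phka1 stayed negative (-0.26, -0.79, -0.88, -1.24 and -1.78) while Gyg1 and Gbe1 turned positive (0.38 and 0.51), and no member passed in edgeR. Relative to the median of all genes these 7 were negative, at -0.82 for Gys1, -1.35 for Ppp1r3c, -1.44 for Pygm, -1.80 for Pygb, -2.34 for Phka1, -0.18 for Gyg1 and -0.05 for Gbe1. The part of muscle cell content in the lower values was not tested.

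The atrial light chain Myl7 was lowest in sham replicate 2 (116.9 FPKM) and ischemia replicates 2 and 3 (12.3 or less). With the atrial score of each sample as a covariate, the log2 fold changes were -1.20 for Gys1, -1.04 for Ppp1r3c, -1.30 for Pygm, -1.88 for Pygb and -1.77 for Phka1, and no gene of the table passed an adjusted p of 0.05 in edgeR, where 2461 had an unadjusted p under 0.05 against 4528 without it. Skeletal muscle markers were near 0, with sums of 2.07 to 5.70 FPKM over 4 genes and Actn3 listed without reads in all sham samples.

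**Figure D4:**
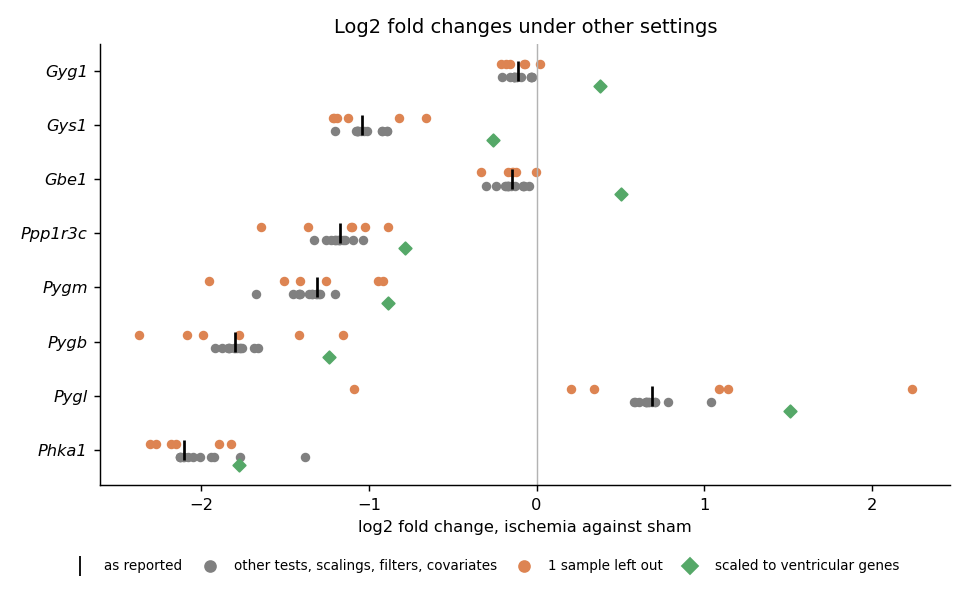
Log2 fold change of each glycogen gene under every setting tried, with the reported value as a black tick, other tests, scalings, filters and covariates in grey, fits without 1 sample in orange, and scaling to ventricular genes in green. Gys1, Ppp1r3c, Pygm, Pygb and Phka1 stay below 0 throughout, while Pygl spans -1.09 to 2.24 when single samples are left out.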

How the data were processed

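Total RNA of myocardial tissue was sequenced from stranded libraries. The authors deposited 1 table with raw counts per Ensembl gene, whole numbers that were not normalized, and FPKM, which the authors had scaled by gene length and library size, with genes without reads at 0.0001. STAR and HTSeq are named in the submitters' processing notes without a version. The genome build, and how reads shared between gene copies were counted, are not given in the sources used here, so gene positions are those of the table.

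Genes whose mean FPKM reached 0.5 were tested with the quasi-likelihood test of edgeR (two-sided, TMM scaling, ischemia against sham, no covariates), with Benjamini-Hochberg adjustment over all 13964 genes and a threshold of 0.05. Standard errors and 95% intervals came from the F statistic. The depth gave between 408 and 122480 counts per member and sample, so counting error was small beside the spread between samples. Within-sample shares used exact permutation tests over the 6 samples. The fit was tested on simulated data.

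The members and lists were chosen with earlier results of these data known. Named were the 8 members, every gene of the wider list past the threshold and fixed partner genes of the same complexes, with other names given as chosen after their values were seen. Promoters were matched by symbol in a RefSeq table, and the motifs searched were chosen after the expression values were seen. Alternatives were DESeq2, limma on log2(FPKM + 0.01, 0.1 or 1), limma after quantile normalization, 3 other scalings in edgeR, 2 other filters, the replicate number as a block, an atrial covariate, removal of the mitochondrial genome and each sample left out. Scaling to ventricular genes was added after seeing the data. The planned share of Phka1 among alpha subunits was not computed, as Phka2 was not analysed here. Results for some partner genes are not reported here. Software was DESeq2 1.42.0, limma 3.58.1 and edgeR 4.0.16 on R 4.3.3, and matplotlib 3.10.9 on Python 3.11.15.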

Additional observations from a re-analysis of the deposited data

How the results depend on the processing

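Gys1, Ppp1r3c, Pygm, Pygb and Phka1 had negative log2 fold changes under every alternative in which they were tested (20 each, 19 for Phka1, which the filter at a mean FPKM of 5 removed). Without single samples Gyg1 ranged from -0.21 to 0.021 and Pygl from -1.09 to 2.24, both reversing without ischemia replicate 2, and the cause was not tested. With scaling to ventricular genes Gyg1 (0.38) and Gbe1 (0.51) turned positive through the shift of 0.56 that this scaling gave the median of all genes, below which both stayed.

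The number of the 8 genes lower at an adjusted p under 0.05 moved from 1 to 4 with DESeq2, and to 0 at a mean FPKM of 5, with the replicate block, with the atrial covariate and with scaling to ventricular genes, which also moved the median of the 8 to -0.52. For the wider list, DESeq2 gave 1 higher and 11 lower genes, total-count scaling 1 lower, and 0 were lower at a mean FPKM of 5, with the block, with the atrial covariate and with the ventricular scaling. The filter at a mean FPKM of 5 removed Phka1 and Ppp1r3a, so neither was tested there. Leaving out single samples gave 0 to 2 of the 8 genes lower, 0 to 2 higher and 0 to 7 lower genes of the wider list, a Pygm share difference of -12.4 to 2.64 and a log2 ratio difference of Gys1 to Pygm of -0.20 to 0.85.

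Over all genes, 723 were higher and 214 lower (77.2% higher). DESeq2 gave 2071 and 1742 (54.3%). Lower genes were 443 with limma after quantile normalization, which changed the test as well as the scaling (64.9% higher), 86 with total counts, 93 without a filter and 85 with the ventricular scaling, and single samples left out gave 0 to 1490 higher and 0 to 1115 lower genes. The atrial covariate and the replicate block gave 0 higher and 0 lower, with 2461 and 3349 genes at an unadjusted p under 0.05. Deviations from the group means were not alike in same-numbered samples, with correlations of -0.056, -0.094 and -0.20. With 3 samples per group these values cannot decide whether the numbers pair the samples. With the block, Phka1 was -2.10 (edgeR adjusted p 0.0943) and the call was lost.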
